A study of Mus musculus with 9 samples.

Results

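The 41 genes described here encode proteins of mitosis and of the preceding G2 phase, from the cyclins that start division to the motors and scaffolds that end it. They were named as a list of symbols, and each of the 41 symbols named exactly 1 of the 45535 rows that carry a gene symbol. All 41 reached the minimum mean level of 10 normalized counts and were among the 18202 genes tested. The RNA came from lung dendritic cells of C57/BL6j mice, pulled out with magnetic beads for the integrin CD103 after 7 days of bleomycin and collagenase digestion of the lungs. The group before culture (5 samples) was not cultured, and the group after culture (4 samples) was then held 18 h in serum-containing RPMI with antibiotics. Every sample of both groups had the bleomycin treatment, and no untreated lung is used here. Whether a sample holds cells of 1 mouse or of several, and whether cultures were separate, is not in the labels, so p-values measure the spread between these samples, which may be technical. The cells were enriched on beads and read in bulk, and the extraction label speaks of RNA of total lung while the cell type label names dendritic cells.

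Division is driven by the kinase Cdk1 bound to cyclin A or cyclin B. A phosphatase of the Cdc25 family switches the complex on, the spindle checkpoint holds the cell until all chromosomes are attached, and the anaphase-promoting complex (APC/C) then marks cyclin B for destruction. The transcripts of these proteins are made in a wave late in the cycle and are scarce in resting cells, so that Mki67 and Top2a serve as common markers of dividing cells. In resting cells the DREAM complex represses many such genes through a promoter element called CHR (cell cycle genes homology region), and in dividing cells B-Myb and FoxM1 act at the same promoters. Conventional dendritic cells arise from dividing precursors.

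The promoters of these genes share short sequence elements that the list of symbols does not rest on. RefSeq promoter windows of GRCm38.p6 (250 bases before to 50 bases after an annotated start) were matched for 35 of the 41 genes, giving 37 windows. The letters TTTGAA, the core of the CHR, or TTCAAA on the other strand were present in 28 of these windows (75.7%) and in 17.9% of all 32851 windows. A TTTGAA within 50 bases of the annotated start was found in 26 windows (70.3%), against 4.94% of all windows. The CCAAT box, the letters bound by the factor NF-Y (ATTGG on the other strand), was present in 28 windows (75.7%), against 37.4% of all windows, and at least 2 copies in 19 windows (51.4%), against 11.7%. Both elements occurred together in 24 windows (64.9%), against 6.95% of all windows. A GC box with the letters GGCGGG on either strand was present in 29 windows (78.4%), against 35.3%. None of the 3 searched strings holds another of them. These shares are descriptions of letters in a window, and no test was made of them.

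In 14 of the 28 windows with TTTGAA it lay fully before the start, and in the other 14 only across, at or after it. The last 130 bases before the start are shown for 6 genes with the CHR letters there and for 2 without them, to show the arrangement of the CHR letters and the CCAAT boxes before the start. Capitals mark TTTGAA or TTCAAA and CCAAT or ATTGG, and each sequence runs 5′ to 3′ on the strand of its gene. The first 5 belong to genes with less than 25% of their level left after culture, and Kif22 belongs to the genes that fell least.
Kif11: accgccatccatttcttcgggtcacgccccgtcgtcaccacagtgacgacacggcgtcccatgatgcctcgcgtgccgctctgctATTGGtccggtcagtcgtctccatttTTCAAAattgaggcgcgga
Ube2c: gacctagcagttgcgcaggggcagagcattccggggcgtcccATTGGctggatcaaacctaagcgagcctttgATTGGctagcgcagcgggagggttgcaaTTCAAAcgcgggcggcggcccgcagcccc
Top2a: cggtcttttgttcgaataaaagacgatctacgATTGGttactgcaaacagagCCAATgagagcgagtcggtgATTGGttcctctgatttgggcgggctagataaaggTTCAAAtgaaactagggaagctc
Cdc20: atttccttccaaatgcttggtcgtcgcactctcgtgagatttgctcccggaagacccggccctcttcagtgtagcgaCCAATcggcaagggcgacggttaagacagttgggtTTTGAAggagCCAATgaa
Cdk1: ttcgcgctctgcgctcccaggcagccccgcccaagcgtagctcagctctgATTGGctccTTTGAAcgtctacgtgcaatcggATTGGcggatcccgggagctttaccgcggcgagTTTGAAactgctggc
Kif22: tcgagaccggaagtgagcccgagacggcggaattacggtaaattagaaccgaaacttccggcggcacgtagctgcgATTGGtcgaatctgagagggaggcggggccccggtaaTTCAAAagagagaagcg
Birc5: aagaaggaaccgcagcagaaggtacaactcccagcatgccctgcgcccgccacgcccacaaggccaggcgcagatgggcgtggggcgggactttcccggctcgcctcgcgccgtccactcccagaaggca
Cdc25b: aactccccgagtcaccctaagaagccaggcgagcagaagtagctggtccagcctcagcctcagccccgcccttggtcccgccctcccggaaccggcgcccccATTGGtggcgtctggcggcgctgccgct
In GRCm38.p6 these stretches lie at chr19:37376252-37376381, plus strand (Kif11), chr2:164769799-164769928, plus strand (Ube2c), chr11:99024190-99024319, minus strand (Top2a) and chr4:118437344-118437473, minus strand (Cdc20). The others lie at chr10:69352913-69353042, minus strand (Cdk1), chr7:127042421-127042550, minus strand (Kif22), chr11:117849107-117849236, plus strand (Birc5) and chr2:131186818-131186947, plus strand (Cdc25b). The CHR letters nearest the start lay 19 bases before the start of Kif11, 29 before that of Ube2c, 23 before that of Top2a and 18 before that of Cdc20. Cdk1 held them at 71 and at 15 bases before its start, and Kif22 at 17. These distances rest on the RefSeq starts. The downstream end of the window lay in a GENCODE M21 transcript of its gene for 31 of the 37 windows, not including that of Kif11. By the GENCODE M21 gene starts, the nearest CHR letters of Ube2c, Cdk1 and Kif22 lie inside the gene. The stretch of Birc5, the gene with the largest fall, held neither element, and that of Cdc25b, the gene with the smallest fall, held 1 CCAAT box and no CHR letters.

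**Figure D1:**
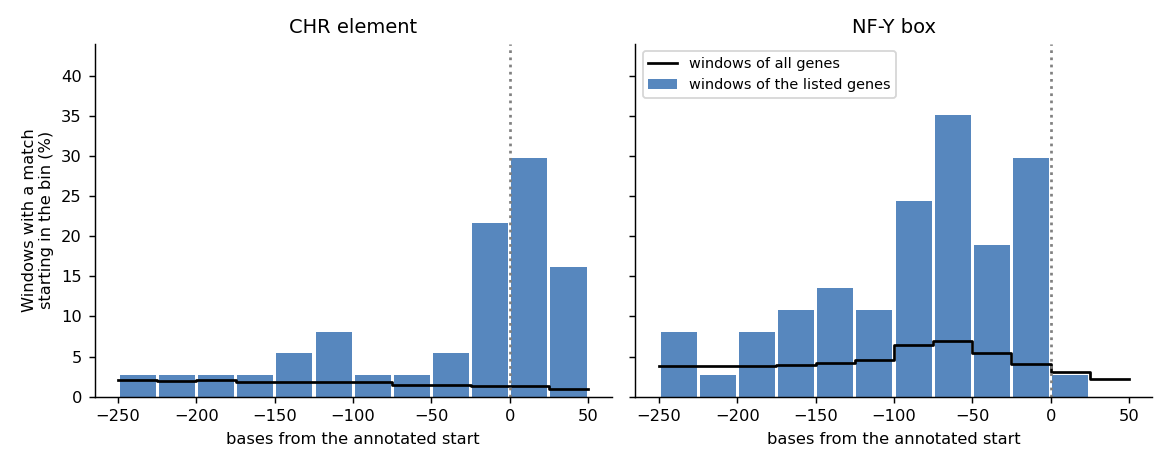
Share of promoter windows with a match that starts in each bin of 25 bases, by distance from the annotated start in bases, for the CHR element (left) and the NF-Y box (right). Blue bars are the 37 windows of the mitosis and G2/M genes and the black line is all 32851 windows; the CHR bars are highest from 25 bases before to 50 bases after the start, with 21.6%, 29.7% and 16.2% of windows in those bins.

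All 41 genes fell in culture. Each passed a limma adjusted p of 0.05 with lower values after culture and 0 were higher. Of all genes tested, 68.8% passed in either direction, 34.6% lower and 34.2% higher, and the largest adjusted p among the 41 was 0.00111 (Spc25). For all 41 every sample after culture lay below every sample before culture. This held for 28.6% of the genes tested, and 57.3% had groups without overlap in either direction. The median log2 fold change was −2.41 on the log2(normalized count + 1) scale, beside 0.00647 over all genes tested, and the median gene kept 18.6% of its level. The deposited factors match those of the median-of-ratios method, which holds the typical gene about level between samples. The all-gene median is therefore set largely by the scaling. A fall of at least 2-fold was seen in 37 genes (90.2%) and in 18.6% of genes tested, and one of at least 4-fold in 31 genes (75.6%) and in 8.19% of genes tested. In these bulk samples, fewer dividing cells and less of these transcripts per cell cannot be told apart.

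A normalized count is a read count divided by 1 factor per sample, so it compares samples and not genes. The summed normalized count of the 41 genes was 37302, 36028, 33289, 37286 and 37321 in replicates 1 to 5 before culture, and 8098, 9541, 7362 and 7973 in replicates 1 to 4 after culture. The groups lay far apart, and the sum was 4.40-fold lower after culture. As a share of reads in named rows, the 41 genes took 1405 ± 108 reads per M before (SD, n = 5) and 325 ± 23.3 after culture (SD, n = 4). Mki67 alone made up 28.0 to 30.7% of the sum before and 20.9 to 28.8% after culture, and without it the sum was 4.26-fold lower. Depth ran from 14.7 to 35.3 M reads in named rows per sample, and the lowest read count behind any value of these genes was 10 reads.

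**Figure D2:**
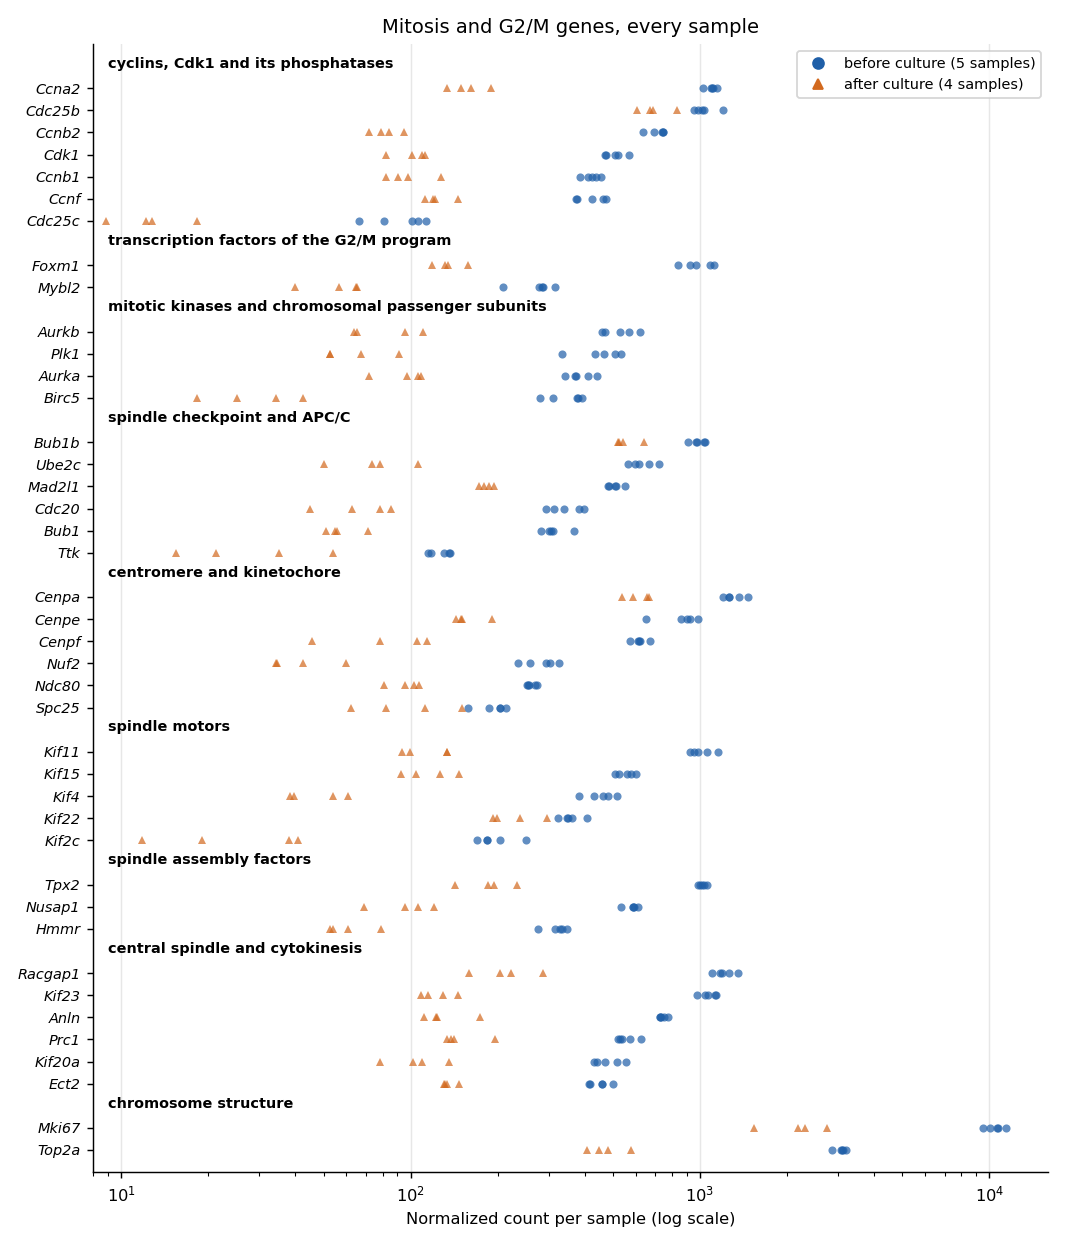
Normalized count (log axis) of each of the 41 genes in every sample, grouped by role, with circles for the 5 samples before culture and triangles for the 4 after culture. In every row the samples after culture lie to the left of those before, with a wide gap for Birc5, Kif4 and Kif11 and a narrow one for Spc25, Kif22 and Cdc25b.

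The markers of dividing chromosomes were the most abundant members. Mki67 encodes Ki-67, which coats mitotic chromosomes and keeps them apart. Its normalized count was 10583, 10072, 9498, 11455 and 10684 in the 5 samples before culture and 2181, 2748, 1539 and 2299.7 in the 4 after culture. The lowest sample before culture was still over 3 times the highest after culture, and the log2 fold change was −2.28 (SE 0.131, limma adjusted p = 4.47e-09). Top2a encodes topoisomerase IIα, which untangles the copied DNA. It read 3067, 3116, 2864, 3204 and 3089.5 before culture and 448, 578, 406 and 481 after culture. Its 5 values before culture lay close together, and it was 6.41-fold lower in culture (−2.69 on the log2 scale, SE 0.0944, limma adjusted p = 4.22e-11). Here and below, means are given ± SD, with n = 5 before and n = 4 after culture.

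Levels of different genes can be compared only per length. In normalized counts per kilobase of the longest GENCODE M21 transcript, Mki67 had the highest level before culture (1039.5 ± 72.6), followed by Top2a (588 ± 23.997), Ccnb2 (465 ± 31.3), Ccna2 (368 ± 14.8), Cenpa (344 ± 27.04) and Cdc25b (336 ± 30.5). Ccna2 and Cenpa, and likewise Cenpa and Cdc25b, differed by less than the SD of Cenpa. After culture, levels per kilobase put Cdc25b (227 ± 31.3) and Mki67 (218 ± 49.6) at the top, within their spread of each other. Cenpa (161 ± 16.02) and Bub1b (152 ± 15.4) followed, also within their spread, and then Top2a (91.6 ± 14.1).

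The cyclins and Cdk1 fell by differing amounts. Ccna2, cyclin A2, had normalized counts of 1101, 1089, 1022, 1107 and 1142 before culture and 149, 189.5, 134 and 161 after culture. Its lowest sample before culture was over 5 times its highest after culture, and the log2 fold change was −2.79 (SE 0.103, limma adjusted p = 6.63e-11). Ccnb2, a cyclin B, was 8.63-fold lower (711 ± 47.9 against 82.4 ± 9.75), and Ccnb1, the other cyclin B here, was 4.24-fold lower (422 ± 26.4 against 99.4 ± 19.8). Cdk1, the kinase they activate, was 5.03-fold lower (508 ± 39.4 against 101 ± 13.7). Ccnf, a cyclin that works as an F-box subunit of a ubiquitin ligase, was 3.38-fold lower (422 ± 46.6 against 125 ± 14.9). Of the Ccnb1 transcript, 42.1% of 50-base windows recur elsewhere, chiefly in the pseudogene Ccnb1-ps, so its value is uncertain. Exosc9 overlaps 12.5% of the exonic bases of Ccna2 on the other strand.

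The Cdc25 phosphatases of the list lay far apart. Cdc25c, which activates Cdk1 at the entry to mitosis, was the least abundant member. It read 106, 101, 80.8, 66.1 and 113 before culture and 8.83, 18.2, 12.7 and 12.2 after culture. No value after culture came near those before, and it was 7.19-fold lower (log2 fold change −2.77, SE 0.247, limma adjusted p = 3.57e-07), with 12.7% of its exonic bases opposite Gm3550. Cdc25b, which activates Cdk1 early in mitotic entry, read 1034, 1197, 987, 1016 and 952 before culture. After culture it read 606, 685, 835 and 673. The groups did not overlap, yet 67.5% of the level was left (log2 fold change −0.57, SE 0.101, limma adjusted p = 2.04e-04), the smallest fall of the 41.

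Both transcription factors of the late cell cycle fell. Foxm1 read 1081, 971, 843, 922 and 1121 before culture and 135, 158, 131 and 119 after culture, which was 7.28-fold lower (log2 fold change −2.85, SE 0.113, limma adjusted p = 1.26e-10). Mybl2, which encodes B-Myb, read 288, 314, 284, 208 and 277 before and 39.7, 65.2, 56.4 and 64.6 after culture, 4.86-fold lower (log2 fold change −2.27, SE 0.174, limma adjusted p = 7.71e-08). Replicate 4 before culture was the lowest of its group for Mybl2, and it was still above every sample after culture. In Mybl2, 23.9% of transcript windows recur elsewhere, chiefly in Gm3320.

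The mitotic kinases and the chromosomal passenger subunits held the largest fall. Birc5 encodes survivin, which brings Aurora B to the centromere. Its normalized count was 392, 379.9, 309.6, 280.4 and 376 before culture and 42.4, 34.1, 18.2 and 25.1 after culture. It was 11.6-fold lower, with 8.62% left (log2 fold change −3.55, SE 0.217, limma adjusted p = 8.24e-09). Aurkb, Aurora B itself, read 618, 527, 460.0, 470.4 and 567 before and 95.4, 111, 65.5 and 63.9 after culture, 6.30-fold lower. Plk1, a kinase of spindle assembly and mitotic entry, read 532, 464, 435, 332 and 510.1 before and 67.1, 90.98, 52.8 and 52.5 after culture, 6.91-fold lower. Aurka, the Aurora kinase of the spindle poles, was 4.05-fold lower (388 ± 38.6 against 95.8 ± 16.6). These 4 genes kept between 8.62 and 24.7% of their levels.

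The spindle checkpoint and APC/C members fell unequally. Bub1b encodes BubR1, a part of the checkpoint complex that inhibits the APC/C. It read 1042, 1029.6, 908, 969 and 977 before culture and 525, 641, 541 and 521 after culture, and it kept 56.5% of its level (log2 fold change −0.83, SE 0.0853, limma adjusted p = 1.50e-06). Ube2c, the ubiquitin-conjugating enzyme that starts chains for the APC/C, read 723, 598, 665, 566 and 616 before and 73.3, 106, 50.04 and 78.3 after culture. It kept 12.1% (log2 fold change −3.07, SE 0.175, limma adjusted p = 4.12e-09). Cdc20, the APC/C activator that the checkpoint restrains, was 5.08-fold lower (345 ± 43.4 against 67.9 ± 18.05). Bub1, a checkpoint kinase at kinetochores, was 5.38-fold lower (313 ± 31.7 against 58.1 ± 8.9998), and Ttk, the kinase that starts checkpoint signalling, was 4.05-fold lower (127 ± 10.7 against 31.4 ± 17.1). Mad2l1, the Mad2 subunit of the checkpoint complex, was 2.77-fold lower (508 ± 28.1 against 183 ± 9.98). The values of Ttk after culture were 21.2, 53.8, 15.5 and 34.97, a wide spread for a group of 4. The sources used here do not state whether counting used strand. Tnnc2 overlaps 22.8% of the exonic bases of Ube2c on the other strand, and reads in that overlap cannot be told apart. In Cdc20, 11.3% of windows recur elsewhere, chiefly in Gm7856.

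Kinetochore genes also split. Cenpa encodes the histone H3 variant that marks centromeres. It read 1263, 1257, 1199, 1359 and 1461 before culture and 654, 585, 668 and 537 after culture, 2.14-fold lower (log2 fold change −1.10, SE 0.0893, limma adjusted p = 1.37e-07). Cenpe, a kinesin that moves chromosomes to the spindle equator, read 983, 901, 651, 924 and 859 before and 151, 191, 149 and 144 after culture, 5.44-fold lower. Replicate 3 before culture was low for Cenpe but stood more than 3 times above the highest sample after culture. Cenpf, a large protein of the outer kinetochore, was 7.21-fold lower (618 ± 34.7 against 85.7 ± 30.7).

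Within the Ndc80 complex, which couples kinetochores to microtubules, the 3 measured subunits differed in how far they fell. Nuf2 was 6.62-fold lower (283 ± 35.9 against 42.8 ± 12.02) and Ndc80 was 2.71-fold lower (261 ± 9.38 against 96.5 ± 11.4). Spc25 read 204, 187, 158, 213 and 204 before culture and 112, 62.2, 150.1 and 82.1 after culture. Replicate 3 after culture nearly reached the lowest sample before culture, and 52.6% of the Spc25 level was left (log2 fold change −0.99, SE 0.216, limma adjusted p = 0.00111). The 95% interval of the log2 fold change was −3.11 to −2.34 for Nuf2, −1.69 to −1.18 for Ndc80 and −1.45 to −0.52 for Spc25, so those of Ndc80 and Spc25 overlap while that of Nuf2 stands apart.

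Among the kinesin motors, Kif4 and Kif11 fell most. Kif11, or Eg5, pushes the spindle poles apart. It read 985, 954, 924, 1158 and 1058 before culture and 133, 133, 93.7 and 99.6 after culture, 8.83-fold lower (log2 fold change −3.15, SE 0.126, limma adjusted p = 1.44e-10). Kif15, which helps to keep the poles apart, read 599, 507, 526, 578 and 558 before and 126, 92.5, 146 and 104 after culture, 4.72-fold lower. Kif4, a chromosome-bound kinesin of the central spindle, was 9.46-fold lower (455 ± 50.5 against 48.1 ± 10.99), although Pdzd11 overlaps 15.1% of its exonic bases on the other strand. Kif2c, a kinesin that takes microtubule ends apart, was 7.23-fold lower (198 ± 31.9 against 27.4 ± 14.2). Kif22, a chromokinesin that binds DNA and microtubules, read 407, 349, 362, 347 and 322 before culture and 239, 193, 295 and 198 after culture. The groups came close to each other, and 64.7% of its level was left (log2 fold change −0.64, SE 0.133, limma adjusted p = 7.28e-04).

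The spindle assembly factors fell by similar amounts. Tpx2, which activates Aurora A on spindle microtubules, read 999.8, 1056, 983, 1014 and 1035 before culture and 185, 234, 143 and 194 after culture, 5.38-fold lower (log2 fold change −2.44, SE 0.120, limma adjusted p = 9.40e-10). Nusap1, a microtubule-bundling protein, read 611, 590.3, 532, 588 and 587 before and 95.4, 121, 69.2 and 106 after culture, 5.94-fold lower. Hmmr, a spindle protein also known as a hyaluronan receptor, was 5.19-fold lower (319.7 ± 27.5 against 61.6 ± 12.03). All 3 kept between 16.8 and 19.3% of their level.

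The genes of the central spindle and of cytokinesis fell too. Kif23, the kinesin of the centralspindlin complex, read 1041, 1068, 976, 1134 and 1126 before culture and 109, 146, 129 and 115 after culture, 8.57-fold lower (log2 fold change −3.10, SE 0.104, limma adjusted p = 2.72e-11). Its partner Racgap1 read 1264, 1187, 1097, 1170.1 and 1355 before and 203, 286, 222 and 159 after culture, 5.58-fold lower (log2 fold change −2.50). The 95% intervals of their log2 fold changes, −3.32 to −2.87 for Kif23 and −2.80 to −2.20 for Racgap1, did not overlap. Ect2, the exchange factor that centralspindlin recruits to activate RhoA, was 3.32-fold lower (449.5 ± 35.6 against 135 ± 7.81). Anln, an actin-binding scaffold of the cleavage furrow, was 5.60-fold lower (742 ± 20.6 against 133 ± 27.9). Prc1, which crosslinks the antiparallel microtubules of the midzone, was 3.66-fold lower (557 ± 41.8 against 152 ± 29.7). Kif20a, a midzone kinesin, was 4.54-fold lower (483 ± 53.5 against 106 ± 23.7). Of Kif20a, 29.3% of exonic bases lie opposite Cdc23, and of Prc1, 11.1% lie opposite Rccd1.

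**Figure D3:**
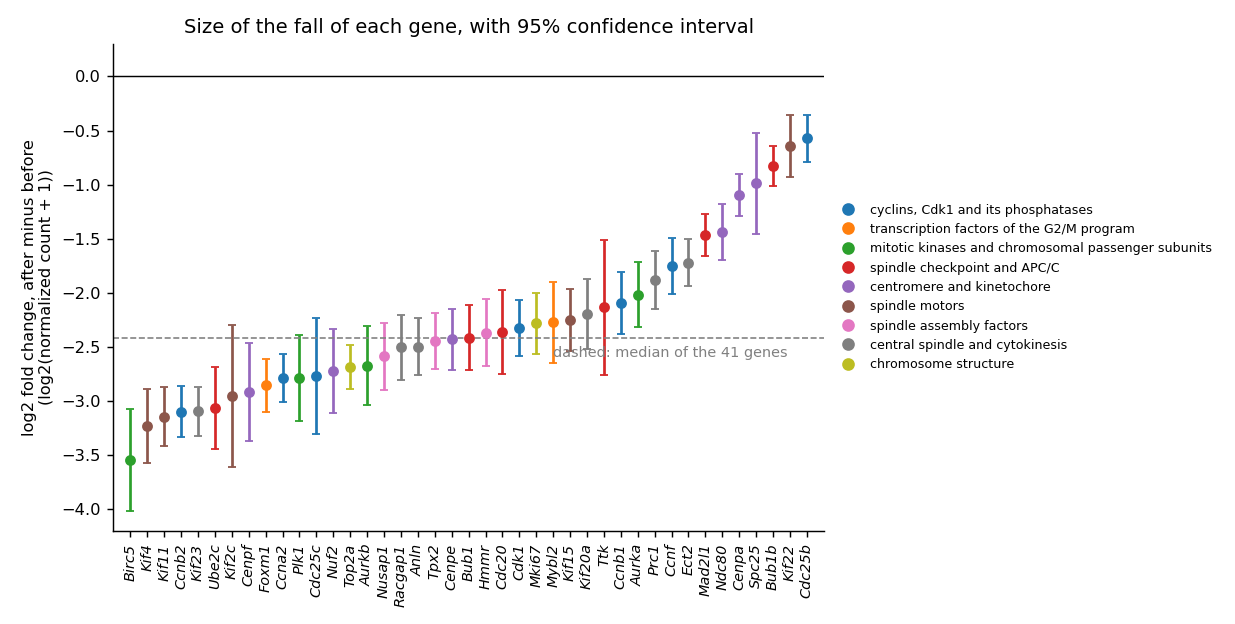
Log2 fold change (after minus before culture, log2(normalized count + 1)) of each of the 41 genes from limma, ordered by size and coloured by role, with bars for the 95% confidence interval. The median is −2.41; Birc5 has the largest fall at −3.55, and Cenpa, Spc25, Bub1b, Kif22 and Cdc25b have the smallest, from −1.10 to −0.57.

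The falls differed between members by more than the replicate spread. For each gene the log2 level in a sample was set against the mean log2 level of the other 40 in the same sample, and the groups were compared by an exact two-sided permutation test over all 126 arrangements, adjusted by Benjamini-Hochberg over the 41 genes. The smallest p this design can give is 0.0159, which became an adjusted p of 0.0271. By this measure 12 genes fell less than the others and 15 fell more at an adjusted p of 0.05, while 14 did not pass. Cdc25b fell less by 1.76 on the log2 scale, Kif22 by 1.69, Bub1b by 1.50, Spc25 by 1.33 and Cenpa by 1.22, each with an adjusted p of 0.0271 (exact permutation test). Birc5 had a difference of −1.29 and Kif4 of −0.97 at the same adjusted p, and Mki67 had one of 0.01 (exact permutation test, adjusted p = 1.00). Of the Ndc80 complex, Nuf2 fell more than the others (−0.45) and Ndc80 less (0.88). This comparison was chosen after the values were seen.

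Many members were high or low in the same replicate of a group. After culture, replicate 2 had the highest value of its group in 32 of the 41 genes, where it was highest for 32.99% of all genes tested, and replicate 3 the lowest in 21, against 33.7%. The 5 genes highest in replicate 3 were Cdc25b, Cenpa, Spc25, Kif15 and Kif22, of which all but Kif15 are among the 5 with the smallest falls. Before culture, replicate 3 had the lowest value in 23 genes, against 16.8% of genes tested. The relative spread was larger after culture in 38 of the 41 genes (55.1% of genes tested), with a median coefficient of variation of 8.61% before and 19.9% after culture. Over all genes tested these medians were 14.02% and 15.2%. Those genes are not matched to the 41 in level or in size of fall. Lower counts alone carry a larger relative sampling error, and its part in this difference was not tested. Replicates 2 and 3 after culture also differed in markers of other cells. The summed normalized count of the monocyte and interstitial macrophage markers was 25290.5 in replicate 2 and 10282 in replicate 3, against 15993 and 17553 in replicates 1 and 4. Lung epithelial markers summed to 4575 in replicate 2 and 9259.8 in replicate 3, against 4547 and 5070.0. In the library names, replicates 2 and 3 after culture carry the numbers 3 and 4. Before culture, library 3 also had the highest monocyte and interstitial macrophage sum (46690) and library 4 the lowest (25611). Library 4 also had the highest lung epithelial sum before culture (38382). Whether library numbers mark shared animals or batches is not in the labels. The part of these markers in the differences between replicates was not tested.

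**Figure D4:**
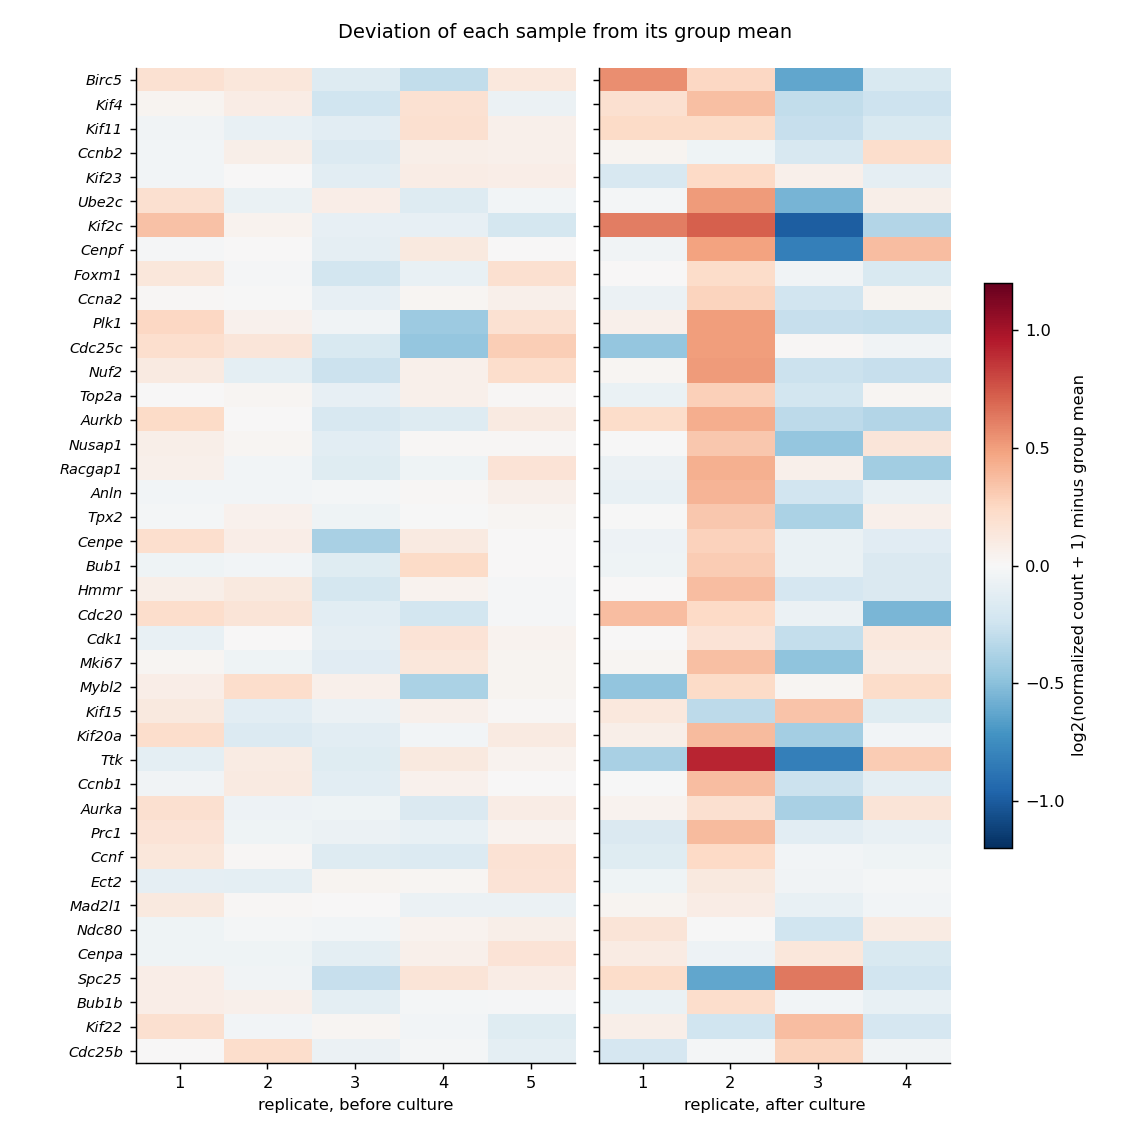
Deviation of each sample from its group mean in log2(normalized count + 1), for the 41 genes ordered by size of fall, with the 5 samples before culture on the left and the 4 after culture on the right. In the column of replicate 2 after culture most genes lie above the mean (highest of the group in 32 genes), and in that of replicate 3 most lie below it (lowest in 21), with Spc25 and Kif22 among the exceptions.

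Other genes of the pathway were taken from lists of their own, none of which holds a member. Of 63 further mitosis genes, 61 fell and 2 rose, with a median log2 fold change of −1.97. Of all genes tested, 34.6% fell and 34.2% rose. Ncapd2 and Ncaph, subunits of condensin, went from 2260.2 ± 195 to 437 ± 44.1 (log2 fold change −2.37) and from 629.9 ± 37.9 to 92.6 ± 10.2 (−2.76), and Spag5, the spindle protein astrin, from 504 ± 48.3 to 54.7 ± 5.96 (−3.18). The other condensin genes of this list fell less, namely Ncapg (−1.97), Smc2 (−0.71), Ncapg2 (−0.44) and Smc4 (−0.26). The groups overlapped for Smc4, which passed in 12 of 21 alternative settings. The 2 genes of this list that rose encode kinetochore proteins. Cenpn, which reads the centromeric nucleosome, went from 259.8 ± 24.7 to 689.6 ± 178 (log2 fold change 1.37, limma adjusted p = 6.86e-06), and Zwint, an outer kinetochore protein, from 923 ± 60.9 to 1206 ± 89.9 (0.39, limma adjusted p = 7.69e-04). The groups did not overlap for Cenpn or for Zwint.

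Of 35 genes of DNA replication and S phase, 30 fell, 3 rose and 2 did not pass, with a median log2 fold change of −1.24, where 34.6% of all genes tested fell and 34.2% rose. Mcm5, a subunit of the replicative helicase, went from 1655 ± 117 to 471 ± 73.1 (log2 fold change −1.82), Pole, a replicative polymerase, from 918 ± 69.6 to 289 ± 24.8 (−1.66), and Dtl, a subunit of the ubiquitin ligase that destroys the licensing factor Cdt1, from 528 ± 20.5 to 79.2 ± 17.6 (−2.75). Gins3, a subunit of the GINS complex at the fork, went the other way, from 93.995 ± 13.6 to 893 ± 119 (3.24, limma adjusted p = 2.80e-10), without overlap. Tk1, thymidine kinase, rose with overlapping groups (2019 ± 213 against 2835 ± 679, limma adjusted p = 0.00963). Orc1, an origin recognition subunit, also rose with overlap (139.8 ± 25.9 against 195 ± 22.6, limma adjusted p = 0.0132), and did not pass with a replicate block by the numbers in the titles (limma adjusted p = 0.0524). Whether the replication list fell less than the mitosis genes was not tested.

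Of 17 E2F, DREAM and pocket protein genes tested, 6 fell, 5 rose and 6 did not pass (median log2 fold change −0.15). These shares are close to those of all genes tested (34.6% lower, 34.2% higher), so the counts do not set this list apart. The activator E2f2 went from 1399 ± 131 to 307 ± 24.04 (log2 fold change −2.18), and the repressors E2f7 from 309.6 ± 42.2 to 37.4 ± 8.60 (−3.03) and E2f8 from 825 ± 97.4 to 173 ± 49.2 (−2.29). The pocket protein genes rose without overlap, namely Rb1 (2244 ± 221 against 3481 ± 389.7), Rbl1 (1291 ± 123 against 1950.3 ± 32.99) and Rbl2 (1837 ± 145 against 2635 ± 121). Rb1 encodes the retinoblastoma protein, and Rbl1 and Rbl2 encode the pocket proteins of DREAM. E2f6, a repressor, also rose (260.5 ± 29.7 against 439.8 ± 40.4), as did the histone-binding subunit Rbbp4, with overlap (3055 ± 252 against 3599 ± 234, limma adjusted p = 0.0148, and up to 0.0508 over the alternative settings). On the other strand, exons of other genes lie opposite 20.97% of the exonic bases of Rbl2, 14.9% of those of Rb1 and 18.1% of those of Rbbp4. E2f4, the main E2F of DREAM, did not pass (2003 ± 156 against 2065 ± 173, limma adjusted p = 0.655), with a 95% interval of the log2 fold change of −0.13 to 0.22.

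Of 8 genes of CDK inhibitors, 5 fell and 2 rose (median log2 fold change −1.21), where 34.6% of all genes tested fell and 34.2% rose. Cdkn2b, an inhibitor of Cdk4 and Cdk6, went from 37.8 ± 9.99 to 396 ± 81.8 (log2 fold change 3.37, limma adjusted p = 8.69e-09). Its neighbour Cdkn2a went from 8.85 ± 3.98 to 39.9 ± 8.95 (2.20), a low level that a minimum mean of 50 leaves untested. Cdkn1a, the inhibitor induced by p53, fell from 11431 ± 1510.3 to 5951 ± 229 (−0.93), Cdkn2c from 394 ± 49.3 to 75.98 ± 2.02 (−2.35) and Cdkn2d from 564 ± 87.3 to 138 ± 24.2 (−2.02). Cdkn1b did not pass (3902 ± 212 against 3589.9 ± 663, limma adjusted p = 0.272).

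Of 9 G1 cyclin and kinase genes, 6 fell, 0 rose and 3 did not pass (median log2 fold change −0.89), beside 34.6% lower and 34.2% higher among all genes tested. Ccnd1, cyclin D1, went from 4106 ± 285 to 447 ± 4.21 (log2 fold change −3.19), although 23.4% of its exonic bases lie opposite LTO1. Cyclin D3, Ccnd3, went from 3197 ± 364 to 1315 ± 86.3 (−1.28), and Cdc25a, the third Cdc25 phosphatase, from 712 ± 38.5 to 357 ± 25.2 (−0.99). The kinases that D cyclins activate, Cdk4 (1459 ± 119 against 1281 ± 207) and Cdk6 (2992 ± 45.7 against 3167 ± 148) did not pass.

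Among 13 genes of the G2 checkpoint and of the control of mitotic entry, 6 fell, 4 rose and 3 did not pass (median log2 fold change −0.16). With 34.6% of all genes tested lower and 34.2% higher, these counts lie near the background. Pkmyt1, which phosphorylates Cdk1 to hold it inactive, went from 620.4 ± 74.5 to 119.9 ± 6.99 (log2 fold change −2.36), and the stress-response genes Gadd45a from 726 ± 118 to 256 ± 24.8 (−1.49) and Gadd45g from 625 ± 132 to 189 ± 31.4 (−1.71). Wee1, the other such Cdk1 kinase, did not pass (341 ± 20.8 against 307 ± 45.97, limma adjusted p = 0.227). The 4 that rose did so without overlap. Atr and Atm, the kinases of the DNA damage checkpoints, went from 760.3 ± 102 to 1484 ± 179.9 (0.97) and from 1225 ± 103 to 1509 ± 67.9 (0.30). Ensa and Arpp19, inhibitors of the phosphatase PP2A in mitosis, went from 2147 ± 95.6 to 3200.4 ± 114 (0.58) and from 988 ± 64.6 to 1271 ± 36.98 (0.37).

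Of 17 genes of APC/C subunits and regulators, 5 fell, 8 rose and 4 did not pass (median log2 fold change 0.06). The share that fell was near the 34.6% of all genes tested, of which 34.2% rose. Ube2s, which extends the ubiquitin chains that Ube2c starts, went from 1641 ± 88.6 to 617 ± 60.6 (log2 fold change −1.41). The subunits Anapc5 (−0.67), Anapc15 (−0.59) and Anapc13 (−0.32) and the inhibitor Fbxo5 (−0.60) also fell, the last 2 with overlapping groups. Anapc13 passed in 12 of the 21 alternative settings (limma adjusted p = 0.0349, up to 0.252 over the settings) and Fbxo5 in 20 (limma adjusted p = 0.00864, up to 0.0558). The subunits Anapc4 (738 ± 27.4 against 1339.7 ± 42.7, 0.86), Cdc26 (390.0 ± 32.5 against 591 ± 22.1, 0.60) and Anapc10 (193 ± 15.2 against 315 ± 39.5, 0.70) rose without overlap. Among the list genes named so far, exons of other genes also lie opposite at least 10% of the exonic bases of Ncapg, E2f8, Orc1, Cdk4, Gadd45a, Anapc13 and Anapc15. Reads in those overlaps cannot be told from those of the antisense partners.

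**Figure D5:**
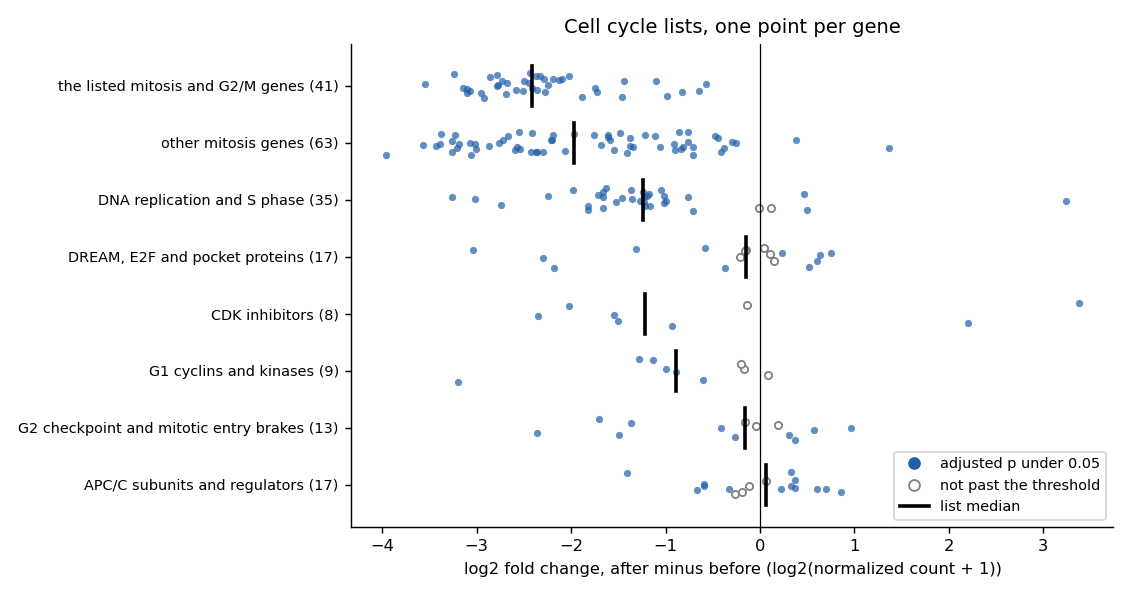
Log2 fold change (after minus before culture, log2(normalized count + 1)) of each gene in the 41 mitosis and G2/M genes and in 7 further cell cycle lists, with marks that show whether a gene passed a limma adjusted p of 0.05 and a bar for the list median. Medians run from −2.41 for the 41 genes over −1.97 for the other mitosis genes and −1.24 for DNA replication to 0.06 for the APC/C list.

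Transcripts of several other cell types were read in these samples, and most of their marker sums were lower after culture too. The counts of markers called are to be read beside the 34.6% of all genes tested that fell and the 34.2% that rose. Of 11 markers of cDC1, the dendritic cell that carries CD103 in the lung, 8 fell and 3 rose, and their summed normalized count was 143423 to 172698 before and 32451 to 36273 after culture. The sum of 7 neutrophil markers was 12721 to 21985 before and 813 to 1687 after culture, with all 6 tested genes lower and Ly6g at 0 in every sample after culture. The sum of 7 granulocyte precursor markers was 118 to 283 before and 11.5 to 41.7 after culture, with all 3 tested genes lower and Ctsg at 0 in every sample after culture. Both sums were lower in every cultured sample than in any sample before culture. Endothelial markers (7 of 7 lower) summed to 23513 to 34428 before and 3274 to 4294 after culture, and fibroblast markers (7 of 7 lower) to 15822 to 28809 and 2315 to 4582. Lung epithelial markers (7 of 10 lower, 1 higher) summed to 18643 to 38382 before and 4547 to 9259.8 after culture. NK cell markers (5 of 6 lower) summed to 1324 to 2753 and 288 to 488, and erythroid markers (5 of 5 tested lower) to 4246 to 14109 and 791 to 3981.

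The T cell and the B and plasma cell marker sums overlapped between the groups, and the shares of these markers called lower did not exceed the 34.6% of all genes tested. T cell markers summed to 8236 to 9889.9 before and 6833 to 9299.8 after culture (3 of 9 lower, 1 higher), and B and plasma cell markers to 2660.0 to 4705 and 2587 to 3660.4 (1 of 7 lower, 1 higher). Alveolar macrophage markers (4 of 5 tested lower) summed to 16344 to 24312 and 7326 to 10378, and monocyte and interstitial macrophage markers (5 of 8 lower) to 25611 to 46690.2 and 10282 to 25290.5. Markers of cDC2 and plasmacytoid dendritic cells (6 of 8 lower) summed to 22580.4 to 29182 and 16257 to 26290.5, with overlap. No marker on these 13 lists was at 0 in all samples. The part of the cell make-up in the fall of the mitosis genes was not tested.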

How the data were processed

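RNA of CD103+ lung dendritic cells was sequenced from 5 samples before and 4 after culture, grouped by the titles in the labels. The deposited table gives normalized counts, a signal of whole gene reads divided by 1 factor per sample. The submitters' processing notes name DESeq2 and GRCm38, and the aligner, counter, annotation and strandedness are not given in the sources used here. Dividing each sample's values by its normalized count of 1 read, recovered from the low values, gave whole reads for all values (tolerance 0.001), with 14.7 to 35.3 M reads in named rows per sample. The 3782 rows without a symbol held 3.87 to 10.9% of reads and were left out.

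Genes with a mean of 10 normalized counts or more were fitted with limma 3.58.1 (R 4.3.3) on log2(normalized count + 1) with a mean-variance trend, two-sided, with Benjamini-Hochberg adjustment over all 18202 genes and a threshold of 0.05. The fit was tested on simulated data with 200 changed genes, far fewer than were called here. At dispersions of 0.02 and 0.1 it recovered 92 and 29 of 100 genes with a log2 change of 1. Of 100 genes with a log2 change of 2 it recovered 100 and 96. At these dispersions 4% and 5.3% of calls were false. A log-scale fold change understates changes of low genes. Alternatives were other pseudocounts, filters and scalings, array weights, edgeR 4.0.16 and DESeq2 1.42.0 on the recovered reads, replicate blocks and leaving out each sample. Transcript lengths, shared windows and antisense overlap came from GENCODE M21 (GRCm38), and promoters from RefSeq (GRCm38.p6). Replicates of 1 group differed beyond read-sampling error (chi-square over degrees of freedom, 7.02 to 66.9), so none was merged as a library deposited again, which does not show that they came from separate animals or cultures.

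The members and lists were chosen with earlier results of these data known. Per-sample values are given for the 2 members with the highest mean normalized count in each role group (not per length) and for the members with the largest and smallest fold change. Of the 7 further cell cycle lists, the 3 genes with the smallest adjusted p in each direction are named. Any gene that changed against its list's median is named as well. For the marker lists, sums and counts are given, and single genes are named only where all samples of a group were at 0. Per-sample values of Cdc25c, Ttk, Spc25 and Kif22 were chosen after their values were seen. So were the names E2f4, Cdkn1b, Cdk4, Cdk6, Wee1, Spc24, Ncapg, Ncapg2, Smc2 and Smc4. Of 163 list genes 162 were matched, all but Lin54.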

Additional observations from a re-analysis of the deposited data

Results flagged for a closer look

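In each group of samples, a value was marked where its gap to the nearest other sample was large against the range of the group (Dixon's 95% critical value). Of 104 groups of values tested, 4 were marked, and chance marks about 1 in 20. All 4 were the highest sample after culture, which was replicate 2 each time. Cenpe had a normalized count of 191.055 there, against 151.045 in the next sample. Prc1 had 196.362, against 141.404, and Ect2 had 147.082, against 133.042. The summed normalized count of the 6 genes of the central spindle and cytokinesis, which include Prc1 and Ect2, was 1084.92, against 808.88 in the next sample. All 4 values remained below every sample before culture.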

How the results depend on the processing

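All 41 genes were lower past the threshold in each of the 21 alternatives, including the 9 fits that left out 1 sample each. Their median log2 fold change was −2.28 with a pseudocount of 8 and −2.28 with quantile normalization, where small values are compressed or the distributions are made equal, and ran from −2.51 to −2.36 when 1 sample was left out. The number of members without overlap was 40 with upper quartile scaling and 39 with quantile normalization. Over all genes tested, the calls ran from 9925 to 14150 with all samples. Among the CDK inhibitors, 1 gene rose with a minimum mean of 50, where Cdkn2a was not tested. Of 143 list genes that were called, 133 were called in each alternative and none changed sign. Replicates 1 to 4 carry the same numbers in both groups, but same-numbered samples did not deviate together, with correlations of 0.0807, 0.0796, −0.213 and −0.0403, so the numbers were not taken as pairs. With a replicate block by these numbers, 11646 genes were called, and the APC/C list had 3 lower genes. With a block by the number in the library names, 12836 genes were called, and correlations were 0.0807, 0.247, 0.349 and 0.0447. Each cultured sample correlated best with the sample before culture of its own library number, a hint from the data and not from the design. The lowest read count of a member, 10 reads in 1 sample, limits the precision of the least abundant genes such as Cdc25c.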
